A study of Mus musculus with 5 samples.

Results

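The 10 genes described here encode the desmosome of the mouse epidermis, the spot-like junction that ties the keratin filaments of neighbouring keratinocytes together. They were chosen by gene name from the 21667 genes of the deposited table, and the values of their 34 listed transcripts were summed per gene. They comprised the desmogleins Dsg1a, Dsg1b and Dsg3, the desmocollins Dsc1, Dsc2 and Dsc3, and the plaque genes Dsp, Jup, Pkp1 and Pkp3. All 10 passed the filter on low values.

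RNA was sequenced from the whole back epidermis of wild-type C57BL/6 male mice at postnatal day 49, after shaving. Topical treatment, where given, was applied 3 times over 5 days. The groups were 2 libraries given 10 µM forskolin, an activator of adenylyl cyclase, 2 given 1.325 mM cAMP, and 1 labelled untreated, called the control here. The compounds were carried in DMSO and a lotion, and whether the control skin was given that vehicle is not stated. Nor is it stated that 2 libraries of a group are 2 animals, and p-values therefore describe library-to-library spread, possibly technical. The study asked how the cAMP and Creb pathway, which forskolin and cAMP both feed, bears on the hair cycle.

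Desmogleins and desmocollins are cadherins that bind each other in the gap between cells. Inside the cell, plakoglobin (Jup) and the plakophilins (Pkp1 and Pkp3) hold the cadherin tails and gather desmoplakin (Dsp), which grips the keratin filaments. In the epidermis the cadherins change with depth: Dsg3 and Dsc3 are strongest in the lower layers, Dsg1 and Dsc1 in the upper layers that are about to be shed.

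The sequences below are shown because forskolin and cAMP both act towards Creb, whose binding site on DNA is the cAMP response element, and because the desmoplakin gene makes a long and a short protein from 1 splicing choice. Promoter sequence from RefSeq on GRCm38.p6 was matched for 2 of the 10 genes, Dsp and Jup. Each line gives the 250 bases before the gene's start in RefSeq, on the gene's own strand, with GC boxes (GGGCGG on either strand) in capitals. Both windows stop short of the gene starts given with the levels below, which come from the deposited table.
Dsp, chr13:38151044-38151293, plus strand: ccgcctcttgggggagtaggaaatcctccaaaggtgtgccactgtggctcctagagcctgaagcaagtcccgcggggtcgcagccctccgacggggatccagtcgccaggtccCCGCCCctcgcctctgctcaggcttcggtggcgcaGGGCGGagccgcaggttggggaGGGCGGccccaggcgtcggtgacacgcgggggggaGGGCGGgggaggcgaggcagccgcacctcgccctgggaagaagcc
Jup, chr11:100397791-100398040, minus strand: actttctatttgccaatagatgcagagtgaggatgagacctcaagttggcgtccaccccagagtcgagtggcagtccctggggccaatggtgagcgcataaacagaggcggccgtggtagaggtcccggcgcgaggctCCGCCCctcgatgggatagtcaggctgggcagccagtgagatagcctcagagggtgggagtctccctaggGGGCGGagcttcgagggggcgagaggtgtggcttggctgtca
The Dsp window held 4 GC boxes and was 72.4% G and C, and the Jup window held 2 and was 62% G and C. GC boxes were found in 32.7% of 32851 RefSeq promoter windows of this length. Neither window held the full cAMP response element TGACGTCA, its core TGACG, which lies inside the full element, or the AP-1 site TGANTCA, searched on both strands. Over all windows these stood in 1.55%, 17.8% and 6.75%. A match is a string of letters and not a bound site, and a window without a match says nothing of the factor.

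The long and short desmoplakin transcripts part inside exon 23 of 24, at chromosome 13 position 38191858 on the plus strand of GRCm38. The long transcript reads on to position 38193655, through 1797 bases that the short transcript leaves out before it joins exon 24. Each line gives 20 bases on either side of that point, with the bases after it in capitals.
Dsp long transcript: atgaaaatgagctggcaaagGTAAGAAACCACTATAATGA
Dsp short transcript: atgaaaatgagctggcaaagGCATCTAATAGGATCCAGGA
The extra stretch of the long transcript codes for much of the coiled-coil rod between the ends of desmoplakin.

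Levels were deposited as CPM, read counts scaled to the total of each library, and the libraries held an estimated 34200000 to 51700000 reads each. The control library stood apart from the treated ones. Mitochondrial genes took 50.7% and 45.6% of the listed values with forskolin, 43.1% and 58.0% with cAMP, and 69.3% in the control. The other genes, leaving out pseudogenes and ribosomal RNA genes, are called nuclear genes here. They took 31.4% and 34.8% with forskolin, 38.0% and 25.9% with cAMP and 7.9% in the control. Any nuclear gene's CPM in the control is therefore a share of a library filled mostly by other RNA. The median of all 13764 tested genes was 1.69 log2 units higher with forskolin and 1.66 higher with cAMP than in the control. Each comparison with the control is therefore given on 2 scales: CPM as deposited, and CPM divided by median-of-ratios size factors, which brought these medians to 0.21 and 0.20. Markers fixed for keratinocytes were present in every library, with 6 of 6 basal genes summing to 3967 to 5146 CPM with forskolin, 2162 to 4814 CPM with cAMP and 1041 CPM in the control. Endothelial markers stayed at 4.01 CPM or less in every library, with Cdh5 and Kdr under 1 read in the control. Dermal fibroblast markers summed to 8.82 and 198 CPM with forskolin, 107 and 260 CPM with cAMP and 144 CPM in the control. Skeletal muscle markers summed to 107 and 105 CPM with forskolin, 89.9 and 152 CPM with cAMP and 62.9 CPM in the control. In bulk tissue, fewer cells of a type and less RNA per cell cannot be told apart.

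With forskolin, the plaque genes and the minor desmogleins stood above the control in CPM, while Dsg1a, Dsc1, Dsc2 and Dsc3 lay between -0.23 and 0.29 log2 units of it and did not pass. On limma's test across all genes (adjusted p under 0.05), 6 of the 10 were called higher and 0 lower with forskolin, namely Dsg1b, Dsg3, Dsp, Jup, Pkp1 and Pkp3. Over all tested genes 66.7% were called, 66.3% higher and 0.341% lower, so the members' count lies near the background. With cAMP only Pkp1 and Pkp3 were called, both higher, 2 of 10, where 65.6% of all genes were called, 65.1% higher and 0.436% lower. Both forskolin libraries lay above the control for 6 of the 10 genes, against 92.9% of all genes, and both cAMP libraries for 6 of the 10, against 91.0%. The members' median log2 change was 1.34 with forskolin and 0.37 with cAMP, each below the median of all genes. The 2 comparisons share their control library. Without the filter on low values, Dsg1b, Dsg3 and Jup no longer passed with forskolin (limma adjusted p = 0.176, 0.0737 and 0.0598), nor Pkp1 and Pkp3 with cAMP (0.110 and 0.0702).

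On the median-of-ratios scale the picture turned. With forskolin, 4 of 10 genes were called lower and 0 higher, namely Dsg1a, Dsc1, Dsc2 and Dsc3, where 21.7% of all genes were called, 14.9% higher and 6.79% lower. With cAMP, 5 of 10 were called lower and 0 higher, namely Dsg1a, Dsg1b, Dsg3, Dsc1 and Dsc3, where 22.7% were called, 15.4% higher and 7.23% lower. Both forskolin libraries lay below the control for 7 of the 10 genes, against 35.3% of all genes, and both cAMP libraries for 9 of the 10, against 34.8%. The members' median log2 change was -0.57 with forskolin and -1.37 with cAMP. All the genes called lower on this scale were cadherins, and no plaque gene was called on it in either direction.

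**Figure D1:**
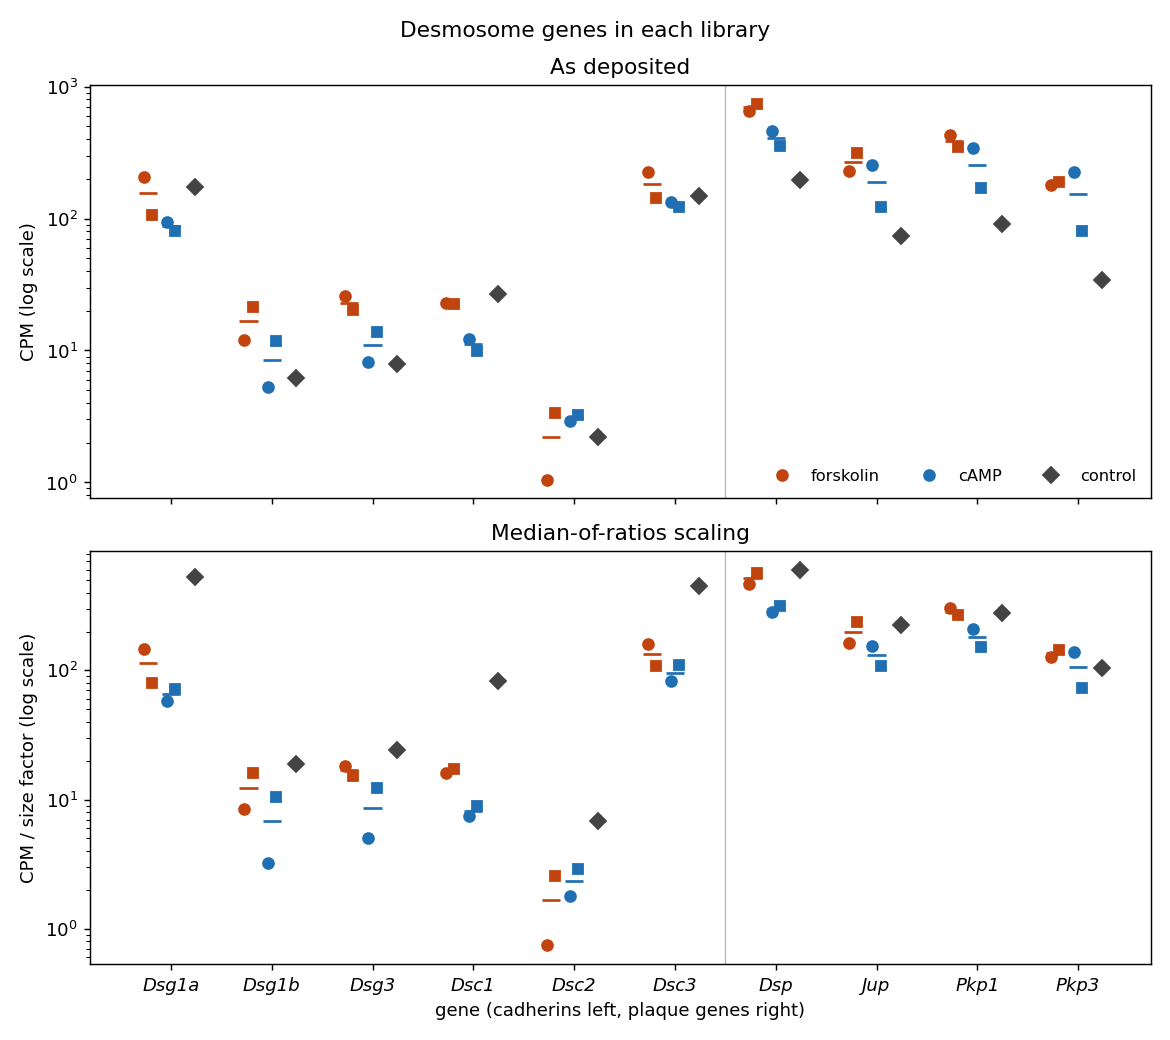
Level of each desmosome gene in each library, as deposited CPM (upper panel) and as CPM divided by the library's size factor (lower panel), both on log axes. Circles are library 1 and squares library 2 of forskolin and cAMP, diamonds are the control, and short lines are group means. In CPM the 4 plaque genes of the control lie below every treated library, and after scaling the control lies above every treated library for the 6 cadherins and for Dsp.

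In CPM desmoplakin, the link to keratin, separated all 3 groups, as did Dsg3, Dsc1 and Pkp1. Dsp (ENSMUSG00000054889, chromosome 13, 38151328 to 38198577, plus strand) had 657 and 741 CPM with forskolin, 462 and 355 CPM with cAMP and 196 CPM in the control. Both forskolin libraries were above both cAMP libraries, and these lay above the control. Dsp rose by 1.82 ± 0.64 log2 units with forskolin (SE; limma adjusted p = 0.00962), and the cAMP difference of 1.04 ± 0.64 did not pass (adjusted p = 0.136). With median-of-ratios scaling the differences turned to -0.24 ± 0.44 (adjusted p = 0.717) and -1.01 ± 0.44 (0.102). Without forskolin 1 or forskolin 2 the deposited difference was 1.91 or 1.74 and no longer passed (adjusted p = 0.0734 and 0.0878).

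Plakoglobin, the catenin shared by desmosomes and adherens junctions, had its CPM group means, though not its single libraries, in the same order as Dsp. Jup (ENSMUSG00000001552, chromosome 11, 100368958 to 100397763, minus strand) had 228 and 312 CPM with forskolin, 254 and 122 CPM with cAMP and 73.5 CPM in the control. The forskolin and cAMP libraries overlapped, and all 4 lay above the control. Jup rose by 1.85 ± 0.61 log2 units with forskolin (limma adjusted p = 0.00567), and its cAMP difference was 1.25 ± 0.61 (0.0598). With median-of-ratios scaling these became -0.21 ± 0.42 (0.746) and -0.79 ± 0.42 (0.178). Without forskolin 2 the call with forskolin was lost (adjusted p = 0.099), and without cAMP 2 Jup passed with cAMP (1.77, adjusted p = 0.00569). Set against beta-catenin (Ctnnb1), its close relative at adherens junctions, the CPM ratio of Jup to Ctnnb1 was 1.44 and 1.94 with forskolin, 1.29 and 0.928 with cAMP and 1.53 in the control. The control's ratio lay among those of the treated libraries.

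The plakophilins, armadillo-repeat proteins that cluster desmoplakin under the membrane, gave the only calls made in both deposited comparisons. Pkp1 (ENSMUSG00000026413, chromosome 1, 135871395 to 135919207, minus strand), strongest in the upper layers, had 430 and 350 CPM with forskolin, 342 and 170 CPM with cAMP and 90.5 CPM in the control. Every treated library lay above the control, and cAMP 2 was the lowest of the 4. Pkp1 rose by 2.09 ± 0.62 log2 units with forskolin (limma adjusted p = 0.00221) and by 1.41 ± 0.62 with cAMP (0.0374). Without forskolin 1 these p-values were 0.0642 and 0.101, without forskolin 2 the cAMP value was 0.0947, and without cAMP 1 it was 0.144 at a change of 0.91. A pseudocount of 5 or robust fitting also ended the cAMP call (0.0612 and 0.0614). With median-of-ratios scaling the differences were 0.03 ± 0.41 (0.960) and -0.64 ± 0.41 (0.271).

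Pkp3 (ENSMUSG00000054065, chromosome 7, 141078218 to 141090510, plus strand), found through all living layers, had 180 and 189 CPM with forskolin, 227 and 80.8 CPM with cAMP and 34.1 CPM in the control. It had the largest rise of the 10 genes on the deposited scale with either compound. The log2 changes were 2.41 ± 0.60 with forskolin (limma adjusted p = 0.000302) and 1.96 ± 0.60 with cAMP (0.00289). Both calls held when any of the 4 treated libraries was left out. With median-of-ratios scaling the differences were 0.37 ± 0.42 (0.543) and -0.06 ± 0.42 (0.932).

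Among the desmogleins, Dsg1a passed no deposited comparison with the control. Dsg1a (ENSMUSG00000069441, chromosome 18, 20310811 to 20343350, plus strand), a copy of desmoglein 1 that mice carry in several copies, had 207 and 106 CPM with forskolin, 94.9 and 80.5 CPM with cAMP and 173 CPM in the control. The control lay between the forskolin libraries and above both cAMP libraries. The deposited differences were -0.22 ± 0.60 log2 units with forskolin (limma adjusted p = 0.736) and -0.97 ± 0.60 with cAMP (0.134), at -1.91 and -2.64 log2 units from the median gene. With median-of-ratios scaling Dsg1a fell both with forskolin (-2.28 ± 0.42; 0.00116) and with cAMP (-3.02 ± 0.42; 8.21e-05), and either call held when any treated library was left out.

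Dsg1b and Dsg3 were low in every library. Dsg1b (ENSMUSG00000061928, chromosome 18, 20376729 to 20410196, plus strand) had 12 and 21.2 CPM with forskolin, 5.28 and 11.7 CPM with cAMP and 6.15 CPM in the control, so that the cAMP libraries lay on either side of the control. The rise with forskolin, 1.25 ± 0.58 log2 units, was at the threshold (limma adjusted p = 0.0490) and was lost without forskolin 1 (0.0896) or forskolin 2 (0.343) and with a pseudocount of 0.1 (0.0513) or 5 (0.0716) in place of 1. The cAMP difference was 0.32 ± 0.58 (0.616), and with median-of-ratios scaling the values were -0.64 ± 0.53 with forskolin (0.389) and -1.51 ± 0.53 with cAMP (0.0457). Without cAMP 1 the last of these calls was lost (0.312). The listed Dsg1a and Dsg1b transcripts were 96.8% identical over 3709 aligned bases, and 26.0% of the 75-base windows of Dsg1a occur in Dsg1b, so reads may have been divided between the copies and the value of each copy is uncertain.

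Dsg3 (ENSMUSG00000056632, chromosome 18, 20510304 to 20541310, plus strand), the desmoglein of the basal layers, had 25.8 and 20.1 CPM with forskolin, 8.21 and 13.7 CPM with cAMP and 7.86 CPM in the control. Both forskolin libraries lay above the cAMP libraries, and cAMP 1 was close to the control. Dsg3 rose by 1.43 ± 0.58 log2 units with forskolin (limma adjusted p = 0.0236), a call lost without forskolin 1 (0.189) or forskolin 2 (0.0874), and differed by 0.39 ± 0.58 with cAMP (0.535). With median-of-ratios scaling the forskolin difference was -0.50 ± 0.46 (0.437), and Dsg3 fell with cAMP (-1.49 ± 0.46; 0.0248), a call lost without cAMP 1 (0.172). The CPM ratio of Dsg1a, the upper-layer desmoglein, to Dsg3 was 8.02 and 5.25 with forskolin, 11.6 and 5.89 with cAMP and 22.0 in the control, which was the highest.

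Dsc1 lay furthest below the median gene as deposited, at -1.92 log2 units from it with forskolin and -2.86 with cAMP. Dsc1 (ENSMUSG00000044322, chromosome 18, 20084703 to 20114773, minus strand), the upper-layer desmocollin, had 22.8 and 22.5 CPM with forskolin, 12.3 and 9.95 CPM with cAMP and 26.7 CPM in the control. It was the only gene of the 10 whose control CPM lay above all 4 treated libraries as deposited. The deposited differences did not pass with forskolin (-0.23 ± 0.57; limma adjusted p = 0.718) or with cAMP (-1.20 ± 0.57; 0.0560), but the cAMP difference passed under 9 of 13 alternatives, among them without cAMP 1 (0.0219) or cAMP 2 (0.0461). With median-of-ratios scaling Dsc1 fell both with forskolin (-2.24 ± 0.39; 0.000682) and with cAMP (-3.18 ± 0.39; 2.35e-05), and either call held when any treated library was left out.

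Dsc3 (ENSMUSG00000059898, chromosome 18, 19960930 to 20002097, minus strand), the desmocollin of the basal layers, had 226 and 142 CPM with forskolin, 134 and 122 CPM with cAMP and 147 CPM in the control. The control lay between the forskolin libraries and above both cAMP libraries. Neither deposited difference passed (0.29 ± 0.60 with forskolin, limma adjusted p = 0.663; -0.19 ± 0.60 with cAMP, 0.771). With median-of-ratios scaling Dsc3 fell both with forskolin (-1.77 ± 0.41; 0.00555) and with cAMP (-2.24 ± 0.41; 0.000843), and these calls too held when any treated library was left out.

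Dsc2 (ENSMUSG00000024331, chromosome 18, 20030633 to 20059554, minus strand), the most widely expressed desmocollin of the body, was the lowest of the 10 genes per kilobase, with 1.05 and 3.37 CPM with forskolin, 2.92 and 3.22 CPM with cAMP and 2.21 CPM in the control. The forskolin libraries were the lowest and the highest of the 5. The deposited differences were -0.10 ± 0.64 with forskolin (limma adjusted p = 0.888) and 0.34 ± 0.64 with cAMP (0.625). With median-of-ratios scaling Dsc2 fell with forskolin (-1.64 ± 0.53; 0.0349), a call lost without forskolin 1 (0.207), cAMP 1 (0.0508) or cAMP 2 (0.052), and its cAMP difference was -1.24 ± 0.53 (0.0996).

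**Figure D2:**
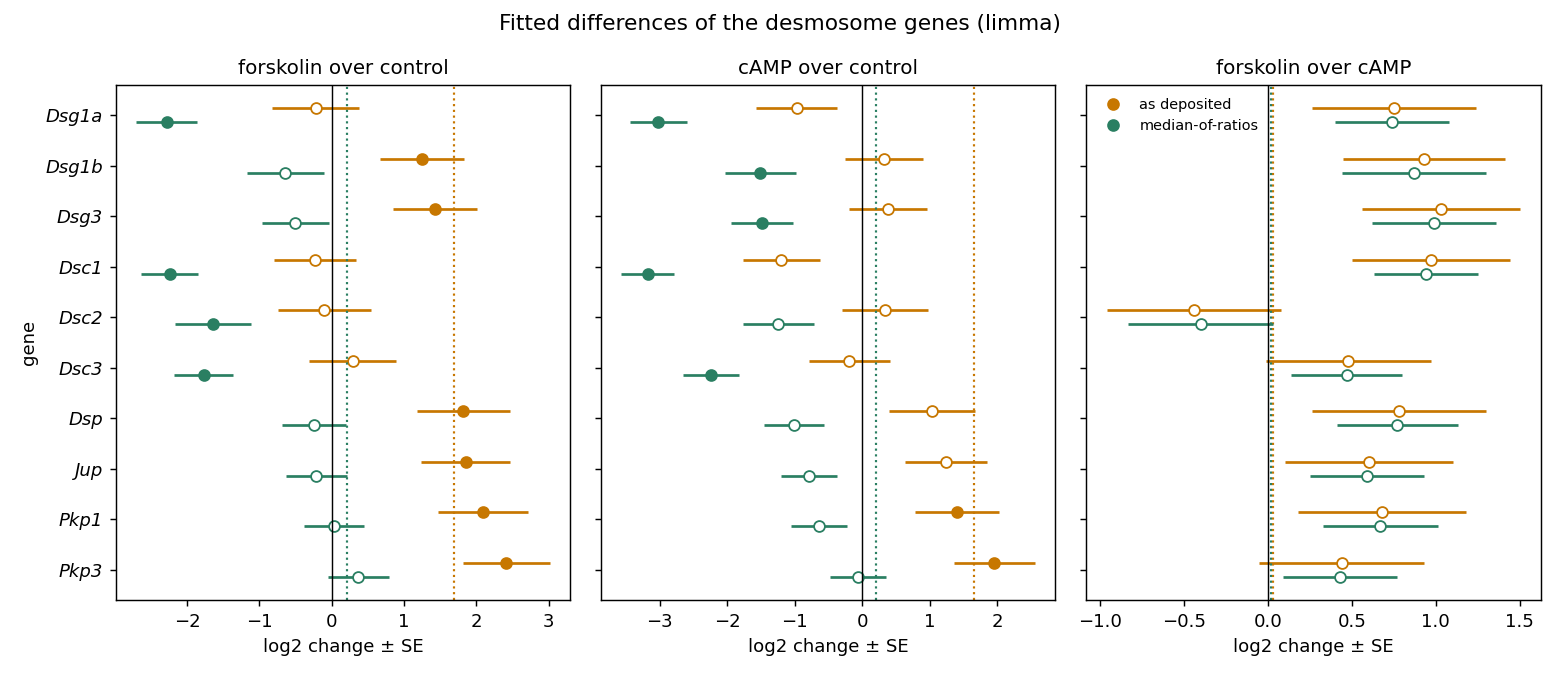
Fitted log2 differences ± SE from limma for each desmosome gene in the 3 comparisons, as deposited (orange) and with median-of-ratios scaling (green), filled where the adjusted p is under 0.05. Dotted lines mark the median of all tested genes on each scale. All the cadherins lie left of the dotted lines in both comparisons with the control. As deposited with forskolin, Dsg1a, Dsc1, Dsc2 and Dsc3 do so by 1.40 to 1.92 log2 units, and Dsg1b and Dsg3 stand at -0.44 and -0.26 from the line. With cAMP, Dsp, Jup and Pkp1 lie left of the lines as well.

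The make-up of the set does not depend on how a library is scaled, since each gene's CPM is divided by the sum of the 10 in the same library. The 6 cadherins together took 24.9% and 16.5% of that sum with forskolin (20.7% ± 5.90, SD, n = 2), 16.7% and 24.9% with cAMP (20.8% ± 5.79) and 47.9% in the control. The control stood above all 4 treated libraries, and the 2 treatments overlapped fully. Shares were not tested, because the smallest p of an exact permutation test of 2 libraries against 1 is 0.333.

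Within the cadherins, Dsg1a took 10.4% and 5.54% with forskolin, 6.15% and 8.30% with cAMP and 22.8% in the control. Dsc1 took 1.14% and 1.18% with forskolin, 0.796% and 1.03% with cAMP and 3.53% in the control. Dsc3 took 11.4% and 7.46% with forskolin, 8.71% and 12.6% with cAMP and 19.4% in the control. These 3 genes carried nearly all of the difference, since Dsg1b, Dsg3 and Dsc2 each took at most 1.41% in any library. The share of Dsp was 33.0% and 38.8% with forskolin, 29.9% and 36.6% with cAMP and 25.9% in the control. Pkp1 took 21.6% and 18.4% with forskolin, 22.2% and 17.6% with cAMP and 12% in the control. The control was the lowest library for the shares of all 4 plaque genes, with Jup at 9.71% against 11.5% to 16.5% in treated libraries and Pkp3 at 4.5% against 8.33% to 14.7%. Per kilobase over all transcripts this did not hold for Jup, whose share of 22.8% in the control lay among the 21.1% to 27% of the treated libraries.

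**Figure D3:**
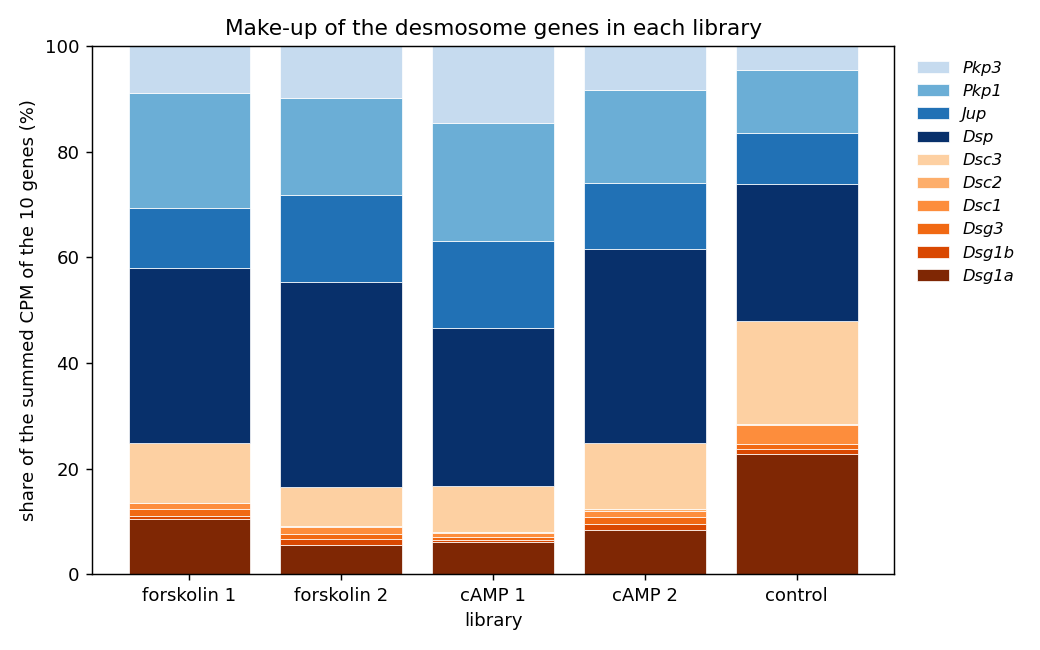
Share of each desmosome gene in the summed CPM of the 10 genes, in percent, for each library, with cadherins in orange and plaque genes in blue. The cadherins fill 16.5% to 24.9% of the treated bars and 47.9% of the control bar.

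Ratios between single pairs gave the same order. The CPM ratio of Dsg1a to Dsp was 0.315 and 0.143 with forskolin, 0.206 and 0.227 with cAMP and 0.879 in the control. That of Dsc1 to Dsp was 0.0347 and 0.0304 with forskolin, 0.0266 and 0.0280 with cAMP and 0.136 in the control. Both ratios put the control above every treated library. Among plaque genes, the ratio of Jup to Dsp was 0.348 and 0.421 with forskolin, 0.550 and 0.343 with cAMP and 0.374 in the control, which lay among the treated values. Against the keratins that desmosomes anchor, Dsg1a to Krt10, the suprabasal keratin, was 0.159 and 0.0909 with forskolin, 0.0809 and 0.140 with cAMP and 0.249 in the control. Dsp to Krt10 ran the other way, at 0.505 and 0.637 with forskolin, 0.394 and 0.618 with cAMP and 0.283 in the control. Against Krt14, the basal keratin, the order turned again, with Dsp to Krt14 at 0.329 and 0.423 with forskolin, 0.188 and 0.336 with cAMP and 0.725 in the control, the highest.

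GC content, markers of the upper layers and the nuclear share of the libraries are given beside this pattern. The 6 cadherin transcripts were 41.9% to 45.4% G and C and the 4 plaque transcripts 51.8% to 60.3%, so GC content splits the set in the same way as function does. After removal of GC content and length from each library, on the median-of-ratios scale, Dsg1a, Dsc1 and Dsc3 still fell with forskolin (-2.08, -2.07 and -1.59; limma adjusted p = 0.00309, 0.00204 and 0.00419). With cAMP they fell as well (-2.63, -2.98 and -1.90; 0.000861, 0.00041 and 0.00148). Dsg3 kept its call (-1.19; 0.0325), and Dsp and Jup then passed as lower too (-0.93 and -1.20; 0.0245 and 0.00839). The same correction ended the calls of Dsc2 with forskolin (-1.47; adjusted p = 0.0734) and of Dsg1b with cAMP (-1.40; 0.0815). Spinous keratinocyte markers, 4 of 4 listed, summed to 2405 to 2760 CPM with forskolin, 1156 to 2815 CPM with cAMP and 1680 CPM in the control. As a percentage of nuclear values they took 0.859 to 0.951 with forskolin, 0.479 to 0.783 with cAMP and 2.33 in the control. Granular markers, 5 of 5 listed, took 0.0246 to 0.0309 percent with forskolin, 0.00787 to 0.0166 percent with cAMP and 0.139 percent in the control. Both upper-layer lists were thus highest in the control on that scale. So were the desmosome genes together, at 1.05 percent in the control and 0.402 to 0.686 percent in treated libraries. The partner, adherens junction, tight junction and regulator lists read below, and the skeletal muscle markers, were highest in the control as well. Basal markers were not, at 1.42 to 1.77 percent with forskolin, 0.895 to 1.34 percent with cAMP and 1.44 percent in the control. Among the upper-layer markers, with median-of-ratios scaling, Lor fell with forskolin (-3.40 ± 0.50; limma adjusted p = 0.000195), as did Sbsn (-2.79 ± 0.42; 0.000236), Krtdap, Ivl and Lce1m. Krt1, Krt10 and Tgm3 did not pass (-0.37 ± 0.50, -1.24 ± 0.50 and 0.35 ± 0.48; 0.613, 0.0793 and 0.618). The separate gene entries of Flg ran from -0.84 to 1.82, and those at 1.59 and 1.82 were called higher (0.0496 and 0.0215). Fibroblast markers, 5 of 5 listed, took 0.00304 to 0.0707 percent with forskolin, 0.0296 to 0.108 percent with cAMP and 0.2 percent in the control. The part of these markers and of the control's nuclear share, 7.9%, in the pattern was not tested.

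Levels of different genes were compared per kilobase over transcripts annotated as coding, and the order of the genes differed between groups. With forskolin, Pkp1 (82 ± 12.4 CPM per kilobase, SD, n = 2), Dsp (78.4 ± 5.06) and Jup (78.1 ± 23) led and did not differ beyond their spread. Dsc3 (34.5 ± 11.1) and Dsg1a (27.5 ± 12.6) stood below them and did not differ beyond theirs. With cAMP, Jup at 54.6 ± 25.1, Pkp1 at 54.3 ± 26.2 and Dsp at 47.1 ± 9.44 again led, not apart beyond the spread, ahead of Dsc3 at 24 ± 1.59 and Dsg1a at 15.4 ± 1.79. In the control Dsg1a led at 30.4, followed by Dsc3 at 27.6, Dsp at 22, Jup at 21.9 and Pkp1 at 19.3. Dsg1a and Dsc3 thus stood above Dsp, Jup and Pkp1 in the control, and below them in every treated library. Dsc1, Dsg1b, Dsg3 and Dsc2 stood at 7.07 CPM per kilobase or less in every library. Pkp3, at 44.6 ± 12.2 with forskolin, 31.2 ± 15.2 with cAMP and 11.4 in the control, is left out of the order because 1 of its coding transcripts has no listed length, at 40.4 and 16.3 CPM with forskolin, 59.5 and 19.7 CPM with cAMP and 5.47 CPM in the control.

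With noncoding transcripts counted in, Jup stood at 118 ± 14.1 CPM per kilobase with forskolin, 76 ± 44 with cAMP and 38.7 in the control, ahead of Dsg1a in the control as well. Shares and ratios of CPM are therefore read only across libraries, not between genes.

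Forskolin against cAMP does not rest on the control library. The mean of 9 of the 10 genes was higher with forskolin, all but Dsc2, with a median log2 difference of 0.72 against 0.03 over all genes. Both forskolin libraries lay above both cAMP libraries for 7 of the 10 genes (Dsg1a, Dsg1b, Dsg3, Dsc1, Dsc3, Dsp and Pkp1), against 16.7% of all genes, and below them for 0, against 17.0%. With median-of-ratios scaling these counts were 6 and 0, against 21.1% and 20.5%, with Jup in and Dsg1b and Dsc3 out. None of the 10 differences passed limma's adjusted threshold, where 0.378% of all genes did, or 0.443% with median-of-ratios scaling.

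At an unadjusted p under 0.05, 2 of the 10 genes were higher with forskolin than with cAMP, and 4 with median-of-ratios scaling. Over all genes 6.81% and 11.3% had such a p, in either direction. Dsg3 was at 23 ± 4.05 CPM with forskolin and 10.9 ± 3.86 CPM with cAMP (SD, n = 2 each), a log2 difference of 1.03 ± 0.47 (limma unadjusted p = 0.0286, adjusted p = 0.648). Dsc1 was at 22.6 ± 0.184 CPM with forskolin and 11.1 ± 1.66 CPM with cAMP, a difference of 0.97 ± 0.47 (unadjusted p = 0.0389, adjusted p = 0.695). For Dsc1 the 2 groups were separated by far more than the spread within either, but the fit gives each gene the spread of all genes of its level. The 4 with median-of-ratios scaling were these 2 with Dsg1a (0.74 ± 0.34) and Dsp (0.77 ± 0.36).

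Without cAMP 2, the treated library with the lowest keratinocyte sums, the Pkp3 difference turned to -0.30, that of Jup was 0.07, and that of Dsg3 was 1.37. Basal markers, 6 of 6 listed, summed to 5146 and 3967 CPM with forskolin and 4814 and 2162 CPM with cAMP. Sebocyte markers, 6 of 6 listed, summed to 1313 and 2020 CPM with forskolin, 4470 and 5112 CPM with cAMP and 150 CPM in the control. Fibroblast markers, 5 of 5 listed, summed to 8.82 and 198 CPM with forskolin and 107 and 260 CPM with cAMP, so the forskolin libraries differed widely. The part of these cell markers in the forskolin and cAMP difference was not tested.

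The table's transcripts show which forms carried the gene sums. Dsp came from its long and short coding transcripts, and the long form had 403 and 547 CPM with forskolin, 234 and 216 CPM with cAMP and 134 CPM in the control. The short form had 255 and 194 CPM with forskolin, 228 and 139 CPM with cAMP and 62.5 CPM in the control. The long form thus took 61.3% and 73.8% of Dsp with forskolin, 50.7% and 60.7% with cAMP and 68.2% in the control. The long share of the control lay between the forskolin libraries and above both cAMP libraries, and the forskolin libraries lay above the cAMP libraries, forskolin 1 and cAMP 2 nearly touching. The 2 forms share most of their bases outside the 1797, differing slightly at their ends, so reads from shared bases cannot be told apart and the deposited split is an estimate.

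**Figure D4:**
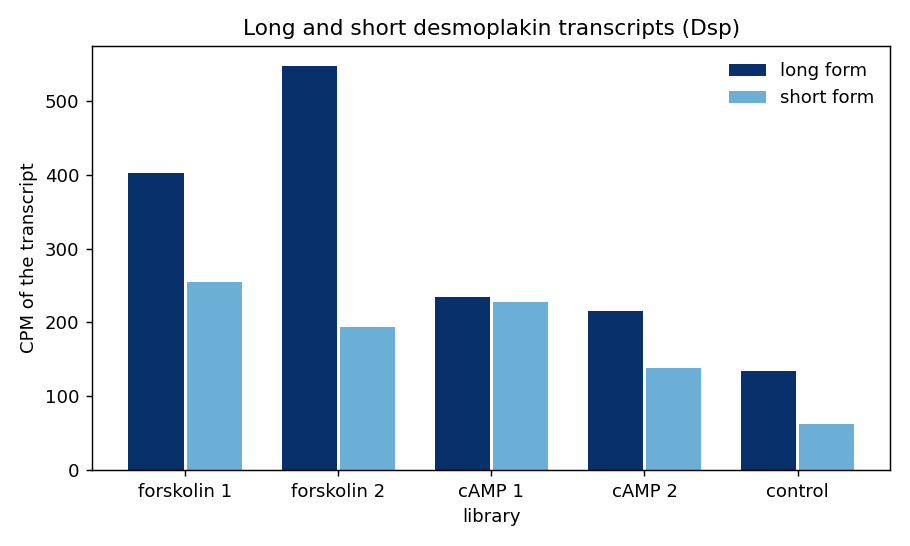
CPM of the long and the short desmoplakin transcript in each library. The long form is the higher in every library and nearly level with the short form in cAMP 1, at 234 against 228 CPM.

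Transcripts annotated as retaining an intron took 19.4% and 21.0% of Pkp3 with forskolin, 22.0% and 11.4% with cAMP and 11.9% in the control. The cAMP libraries lay on either side of the control. Dsc2 at its low level switched annotation between libraries: a transcript annotated for nonsense-mediated decay took 99.8% and 30.9% with forskolin, 0.308% and 16.1% with cAMP and 100% in the control. At 1.05 to 3.37 CPM, such splits rest on few reads. Dsg1a, Dsg1b, Dsg3, Dsc1 and Dsc3 were each listed with a single coding transcript. Pkp1 overlaps Gm36938 on its strand and Dsp overlaps Gm10129 on the opposite strand, at no more than 0.585 and 0.229 CPM in any library.

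Other genes that build on the desmosome were read from lists drawn up with the same earlier results known. Of 13 partner genes 12 were tested, and 7 were higher and 0 lower with forskolin as deposited (median 1.5 log2 units), and 2 higher and 0 lower with cAMP (median 1). Over all genes 66.3% and 65.1% were higher, with medians of 1.69 and 1.66. With median-of-ratios scaling 0 were higher and 2 lower with forskolin (median -0.29), and 0 higher and 4 lower with cAMP (median -0.97), where 6.79% and 7.23% of all genes were lower. Envoplakin (Evpl), a plakin that runs from desmosomes into the cornified envelope, had 100 and 131 CPM with forskolin, 134 and 43.9 CPM with cAMP and 13.2 CPM in the control. Its rise, 3.02 ± 0.59 log2 units with forskolin (limma adjusted p = 5.37e-06) and 2.45 ± 0.59 with cAMP (0.000185), exceeded that of every desmosome gene, and was 1.03 ± 0.43 (0.0941) and 0.47 ± 0.43 (0.451) with median-of-ratios scaling. Periplakin (Ppl), its partner, rose by 1.89 ± 0.60 with forskolin (0.00397) and differed by 0.92 ± 0.60 with cAMP (0.156), and with median-of-ratios scaling its differences were -0.15 ± 0.40 (0.805) and -1.11 ± 0.40 (0.0537).

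Corneodesmosin (Cdsn), which joins desmosomes in the uppermost layers, had 30.4 and 29.2 CPM with forskolin, 30.5 and 17.9 CPM with cAMP and 46.9 CPM in the control. As with Dsc1, the control was above all treated libraries. With median-of-ratios scaling Cdsn fell with forskolin (-2.66 ± 0.37; limma adjusted p = 0.000133) and with cAMP (-2.99 ± 0.37; 3.15e-05), and its deposited differences were -0.64 ± 0.57 (0.307) and -0.97 ± 0.57 (0.120). Perp, a membrane protein needed for stable desmosomes, fell with forskolin (-1.66 ± 0.46; 0.0158) and with cAMP (-1.60 ± 0.46; 0.0176) on that scale only. Pkp4 and Krt10 made up the rest of the 4 lower with cAMP (-1.81 ± 0.41 and -1.81 ± 0.50; 0.00426 and 0.0140). Krt14 rose as deposited by 2.78 ± 0.70 with forskolin (0.000366) and by 2.57 ± 0.70 with cAMP (0.000967), and stood at 0.72 ± 0.53 (0.330) and 0.52 ± 0.53 (0.496) with median-of-ratios scaling. Krt5, Krt1, Dsg2 and Dsg1c were the others higher with forskolin as deposited, between 1.26 and 1.85, and Pkp2 did not pass (1.30 ± 0.66; 0.0678). Dsg1c had 4.41 and 1.40 CPM with forskolin, 1.40 and 0.740 CPM with cAMP and under 1 read in the control. Against a floor of 3 reads in the control, its group mean was at least 47.9-fold higher with forskolin and at least 17.6-fold higher with cAMP. With median-of-ratios scaling these bounds were 11.2-fold and 4.07-fold, and the list medians did not change with Dsg1c at the bounds. The listed Dsg1c transcript was 89.7% and 92.6% identical to those of Dsg1a and Dsg1b over the aligned bases, so its value is uncertain as theirs are. Dsg4, a desmoglein of hair, stayed under 1 CPM in every library and was not tested.

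Adherens and tight junctions, the other contacts of these cells, were read the same way. Of 12 adherens junction genes, 11 were higher with forskolin (median 1.86) and 9 with cAMP (median 1.67) as deposited, none was lower, and on the median-of-ratios scale 0 were called with forskolin and 2 lower with cAMP. As deposited the medians of all genes were 1.69 and 1.66, where 66.3% and 65.1% were higher. On the median-of-ratios scale 21.7% of all genes were called with forskolin, and 7.23% were lower with cAMP. E-cadherin (Cdh1), the classical cadherin of the same cells, rose as deposited with forskolin (1.31 ± 0.59; limma adjusted p = 0.0437), where Nectin1, Afdn and Zyx rose by 2.89, 2.62 and 2.52. On the median-of-ratios scale the Cdh1 difference turned to -0.74 ± 0.38 with forskolin (0.161), and Cdh1 and Vcl were the 2 lower with cAMP (-1.11 ± 0.38 and -1.34 ± 0.44; 0.0415 and 0.0352). Of 10 tested tight junction genes, 5 were higher with forskolin (median 1.43) and 2 with cAMP (median 0.92), below the shares and medians of all genes. With median-of-ratios scaling 2 and 3 were lower, Cldn4 and Ocln in both, where 6.79% and 7.23% of all genes were lower. Cldn4 was at 7.05 and 5.34 CPM with forskolin, 8.86 and 2.84 CPM with cAMP and 6.58 CPM in the control.

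Of 14 genes that control or take apart desmosomes, 9 were higher with forskolin (median 1.60) and 7 with cAMP (median 1.28) as deposited, against 66.3% and 65.1% of all genes. With median-of-ratios scaling 1 was higher and 3 lower with forskolin, and 0 higher and 6 lower with cAMP. Over all genes on that scale 14.9% were higher and 6.79% lower with forskolin, and 15.4% higher and 7.23% lower with cAMP. Grhl3, an epidermal transcription factor of barrier formation, was the gene higher on both scales with forskolin (3.16 ± 0.58, limma adjusted p = 2.00e-06; 1.42 ± 0.48, 0.0420). The 3 lower were Klk5 and Klk7, proteases that cut desmosomes during shedding, and Spink5, their inhibitor. On that scale Klk5 fell with forskolin (-3.07 ± 0.43; limma adjusted p = 0.000133) and with cAMP (-2.98 ± 0.43; 0.00012). Spink5 fell with forskolin (-2.25 ± 0.37; 0.000474) and with cAMP (-2.87 ± 0.37; 4.16e-05). As deposited neither passed. In forskolin against cAMP, no gene of these 4 lists passed.

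The genes whose profile over the 5 libraries was most like the mean profile of the 10 were, by Euclidean distance between centred log2 values on the median-of-ratios scale, Rasgrp1 (0.21), Sh3rf2 and R3hdm1 (0.23 each), Smurf2 and Sh3d19 (0.25 each) and Mycl (0.27). The members lay from 0.57 (Dsp) to 1.48 (Pkp3) from their own mean. The named genes were chosen from all genes for the smallest distance, so their lying nearer than the members was fixed by that choice. Rasgrp1, an activator of Ras, had 16.3 and 19.9 CPM with forskolin, 12 and 9.89 CPM with cAMP and 8.89 CPM in the control. On the median-of-ratios scale, which chose these genes, Rasgrp1 stood at 11.5 and 15.2 with forskolin, 7.31 and 8.87 with cAMP and 27.3 in the control. The control was thus the lowest library in CPM and the highest after scaling.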

How the data were processed

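The authors deposited 1 table of 59869 transcripts in CPM, a unit read from the values. The submitters' processing notes name STAR, Partek and bcl2fastq 2.17. Settings and build: not given in the sources used here. Per the labels, libraries were stranded and made from mRNA. Transcripts were summed per Ensembl gene (3 rows without an identifier, at most 0.0679% of a library, were left out). Coordinates matched GENCODE M21 on GRCm38 for 90.7% of shared transcripts, and depths assume that the offset listed in place of 0 stands for 0.0001 read.

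The 13764 genes that reached 1 CPM in 2 libraries or more were tested on log2(CPM + 1), which understates the change of low genes, by limma-trend (limma 3.58.1, R 4.3.3). All 5 libraries entered with 3 groups, 2-sided, with Benjamini-Hochberg adjustment at 0.05. With 1 control library, its spread was assumed to be that of the treated ones. The fit had 2 residual and 360 prior degrees of freedom (16.4 with median-of-ratios scaling). Size factors came from 11935 genes above 0.05 CPM everywhere and were 1.41 and 1.31 for forskolin, 1.64 and 1.12 for cAMP and 0.325 for the control. The fit was tested on simulated data. The simulated libraries did not differ in scaling, so that test says nothing of the choice of scale. Alternatives covered scaling, pseudocount, filter, robust fitting and left-out libraries; GC and length correction (lowess span 0.3), leaving out libraries after median-of-ratios scaling, and levels per kilobase over coding transcripts were added after seeing the data.

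The members and lists were chosen with earlier results of these data known. All members and partner genes were named, up to 4 genes of each other list by smallest p, and the 6 genes of most similar profile with a mean of at least 8.84 CPM. Floors of 3 reads cover counting error only. Deviations of same-numbered libraries from their group means were not correlated over the tested genes (r = -0.05, 2 pairs). With so few libraries this cannot show whether same-numbered libraries shared an animal or a day.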

Additional observations from a re-analysis of the deposited data

How the results depend on the processing

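Scaling decided most values against the control. With median-of-ratios scaling, scaling to nuclear reads and quantile normalization, 2985, 3110 and 2660 genes were called with forskolin against control in place of 9177, and 3121, 3130 and 2791 with cAMP against control in place of 9025. Each of the 3 scalings called 5 desmosome genes lower with cAMP, in place of 2 called higher, where 7.23%, 6.85% and 7.19% of all genes were lower. Differences from the control turned negative, in the same order of scalings, with forskolin for Dsg1b (-0.64, -0.57, -0.71), Dsg3 (-0.50, -0.43, -0.54) and Dsc3 (-1.77, -1.69, -1.16), and under the first 2 for Dsp (-0.24, -0.15) and Jup (-0.21, -0.12). With cAMP they turned negative for Dsg1b (-1.51, -1.51, -1.53), Dsg3 (-1.49, -1.49, -1.50), Dsc2 (-1.24, -1.25, -1.31), Dsp (-1.01, -0.99, -0.63), Jup (-0.79, -0.77, -0.59), Pkp1 (-0.64, -0.61, -0.30) and Pkp3 (-0.06, -0.04, -0.04). Those of Dsg1a and Dsc1 kept their negative sign under all 3 scalings.

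Without a filter on low values, 3 desmosome genes were called with forskolin in place of 6 and 0 with cAMP, where 28.8% and 29.2% of all genes were called. With a pseudocount of 5, 1 was called with cAMP, where 54.3% of all genes were called. For forskolin against cAMP, 29 genes were called with quantile normalization, 16 with a pseudocount of 0.1, 0 without a filter, 33 with a filter of 10 CPM and 89 with GC and length correction in place of 52, and 17 with that correction after median-of-ratios scaling in place of 61. No desmosome gene was called in that comparison under any alternative. GC and length correction after median-of-ratios scaling turned Pkp1 to -0.27 and Pkp3 to -0.16 with forskolin. With the replicate block, 55 genes and 0 desmosome genes were called for forskolin against cAMP, and 53 and 0 with the treated libraries alone. The same-numbered libraries are known to share only a number.

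With a treated library left out, forskolin against control gave 5283 to 10253 genes and 2 to 6 desmosome genes, with Dsg1a between -0.70 and 0.26, Dsc2 between -0.64 and 0.45 and Dsc3 between -0.05 and 0.62. The 5283 came without forskolin 1, and the 2 without either forskolin library. cAMP against control gave 1 to 4 desmosome genes, 1 without either forskolin library and 4 without cAMP 2, with Dsg1b between -0.19 and 0.83. Forskolin against cAMP gave 11 genes (without cAMP 2) to 70, with Dsc2 between -0.99 and 0.10 and Pkp3 between -0.30 and 1.18. After median-of-ratios scaling, forskolin against control put Jup between -0.48 and 0.07 and Pkp1 between -0.06 and 0.13. cAMP against control then gave 2028 (without cAMP 1) to 3372 genes and 3 (without cAMP 1) to 5 desmosome genes, with Pkp3 between -0.53 and 0.40. Forskolin against cAMP then gave 0 (without either cAMP library) to 201 genes, with Dsc2 between -0.92 and 0.12 and Pkp3 between -0.03 and 0.90.

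The cadherin share without Dsg1a and Dsg1b was 13.1% with forskolin, 14% with cAMP and 31.8% in the control, and per kilobase it was 15.8% with forskolin, 16.7% with cAMP and 40.4% in the control. A fit with 1 control library cannot measure spread among controls, and lone libraries left by leaving another out were assumed to vary like the rest. Dsc2 at 1.05 to 3.37 CPM is the gene whose values depth limits most. Except for scaling and left-out libraries, which act by construction on totals and sample size, the cause of these shifts was not tested.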
